A study of Rattus norvegicus with 20 samples.

Results

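mir-143 and mir-145 are a pair of rat microRNA (miRNA) genes that lie next to each other and are known as markers of smooth muscle. They were chosen by name, as the 2 precursor entries rno-mir-143 and rno-mir-145 among the 444 precursors of the files, together with their 4 mature arms among 577 mature miRNAs. The libraries came from untreated male Long Evans Hooded rats at postnatal day 35, and no group received a treatment or carried a genetic change. Of the 20 small RNA libraries, 3 were brain hemispheres and 3 were serum, each run singly, and 14 were pools of miRNA from 3 rats, with 1 pool for each of stomach, small intestine, large intestine, spleen, heart, thymus, fat (subcutaneous abdominal), lung, skin, testes, skeletal muscle (hindlimb), pancreas, kidney and liver. Each sample was a whole organ or a piece of it and held a mixture of cell types, so that fewer cells of a type and less RNA per cell cannot be told apart. The study measured these tissues to ask where serum miRNAs might come from, with brain as the tissue of interest.

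A miRNA gene is transcribed as a long primary transcript, cut to a hairpin precursor and then to a short mature strand from either side of the hairpin, the 5p or the 3p arm. The mature strand guides the silencing complex to messenger RNAs, which it recognises mainly through its seed, bases 2 to 8. mir-143 and mir-145 are transcribed together and are known to be abundant in vascular and visceral smooth muscle, where they are controlled by serum response factor and its partner myocardin and act on genes of the contractile cytoskeleton. They are also present in fibroblasts and pericytes, and a whole organ therefore holds them in its vessels and connective tissue as well as in any muscle wall.

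RefSeq places both hairpins of the GRCr8 assembly on the minus strand of chromosome 18, Mir143 at chr18:57371349-57371453 and Mir145 at chr18:57369983-57370070, with 1278 bases between them. Both are non-coding and lie within the long non-coding RNA gene Carmn, between the protein-coding genes Csnk1a1, a casein kinase, and Il17b, a cytokine. The authors aligned their reads to another assembly, Rn5, so these positions describe the genes and not the alignments. The mature arms are shown because the amount of reads from each of them is compared further on. They are written 5′ to 3′ as in RefSeq, with the seed in capitals.
rno-miR-143-3p: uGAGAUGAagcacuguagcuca
rno-miR-143-5p: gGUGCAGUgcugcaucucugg
rno-miR-145-5p: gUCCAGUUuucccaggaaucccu
rno-miR-145-3p: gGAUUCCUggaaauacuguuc
The seeds of the 4 arms differ from each other, and none of them is shared with another name among the 693 rat mature miRNAs of that annotation. The pair is thus linked by position and not by seed.

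Levels are given as RPM, reads in each 1000000 of those counted on the same list of names (precursor or mature). The precursor totals were 388275 to 1204552 reads for brain, 162080 to 3685761 for the pools and 7556 to 10862 for serum. A level resting on 3 reads was thus at most 18.5 RPM in a pool and 7.73 RPM in a brain library, but 276 to 397 RPM in a serum library. Intervals are 95% Wilson intervals, which cover counting error only, and the single pools carry no other error. Marker miRNAs were highest in the labelled tissue for brain, heart, skeletal muscle, skin, testes and small intestine. The pool labelled pancreas went against its label, with the liver marker mir-122 at 14862 RPM (14726 RPM in liver), the islet miRNA mir-375 at 496 RPM (18328 RPM in large intestine) and no read of the acinar mir-216a, so results are also given without it.

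The mir-143 precursor was highest in the 3 pools of the digestive tube and lowest in brain. In stomach it stood at 611902 RPM, which was 61.2% of all precursor reads (interval 61.1 to 61.3%), or 485933 of 794135 reads. In large intestine it was 317438 RPM, and in small intestine 307717 RPM. The large intestine count was given to 3 significant digits only, which leaves its share anywhere between 31.7 and 31.8% before counting error. The intervals of the 3 digestive tract pools did not overlap each other or any other tissue.

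Below the digestive tract came spleen with 172787 RPM, heart with 166882 RPM and thymus with 144216 RPM. Fat with 129150 RPM, lung with 127928 RPM and skin with 127797 RPM followed, and the intervals of fat and lung, and of lung and skin, overlapped. Lung was also the tissue median. mir-143 was the most read precursor in heart, lung, spleen and thymus, as it was in stomach and large intestine.

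The lower end of the order was testes with 98674 RPM, skeletal muscle with 67043 RPM, the pool labelled pancreas with 62471 RPM, kidney with 53299 RPM and liver with 48896 RPM. The brain hemispheres had 26140, 21649 and 26020 RPM, a mean of 24603 ± 2559 RPM (SD, n = 3), and each stood below every pool. mir-143 was the 11th most read precursor in each of the 3 hemispheres. The stomach level was 24.9-fold the brain mean on the RPM scale, and 62.8-fold to 131-fold on the other scales used (the pair left out of the total, TMM or DESeq2 size factors). The log2 level in brain lay 2.38 below the tissue median (-2.38, SD 0.16 over 3 libraries), with -2.39 when the pancreas pool was left out.

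The mir-145 precursor had a similar order at a far lower number of reads. Stomach had 1686 RPM (1339 reads, interval 1598 to 1779), small intestine 952 RPM (446 reads, 868 to 1044) and large intestine 806 RPM (2970 reads, 777 to 835). As with mir-143, these 3 pools stood apart from all others, but small intestine was here above large intestine. Next were lung with 490 RPM, heart with 462 RPM, spleen with 351 RPM, fat with 333 RPM and testes with 321 RPM, and each of these overlapped its neighbour in the order.

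Kidney with 229 RPM was followed by skeletal muscle with 166 RPM, skin with 163 RPM, the pool labelled pancreas with 139 RPM, thymus with 94.1 RPM and liver with 61.0 RPM. The brain hemispheres had 58.9, 42.1 and 48.9 RPM from 71, 24 and 19 reads, a mean of 50.0 ± 8.49 RPM (SD, n = 3). The liver value rested on 20 reads, and its interval of 39.5 to 94.2 RPM overlapped those of brain. Stomach was 33.7-fold the brain mean on the RPM scale and 85.1-fold to 177-fold on those other scales. Brain lay 2.66 below the tissue median on the log2 scale (-2.66, SD 0.24), or -2.69 without the pancreas pool. mir-145 ranked 37th among the precursors of stomach and 200th to 218th in the hemispheres.

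**Figure D1:**
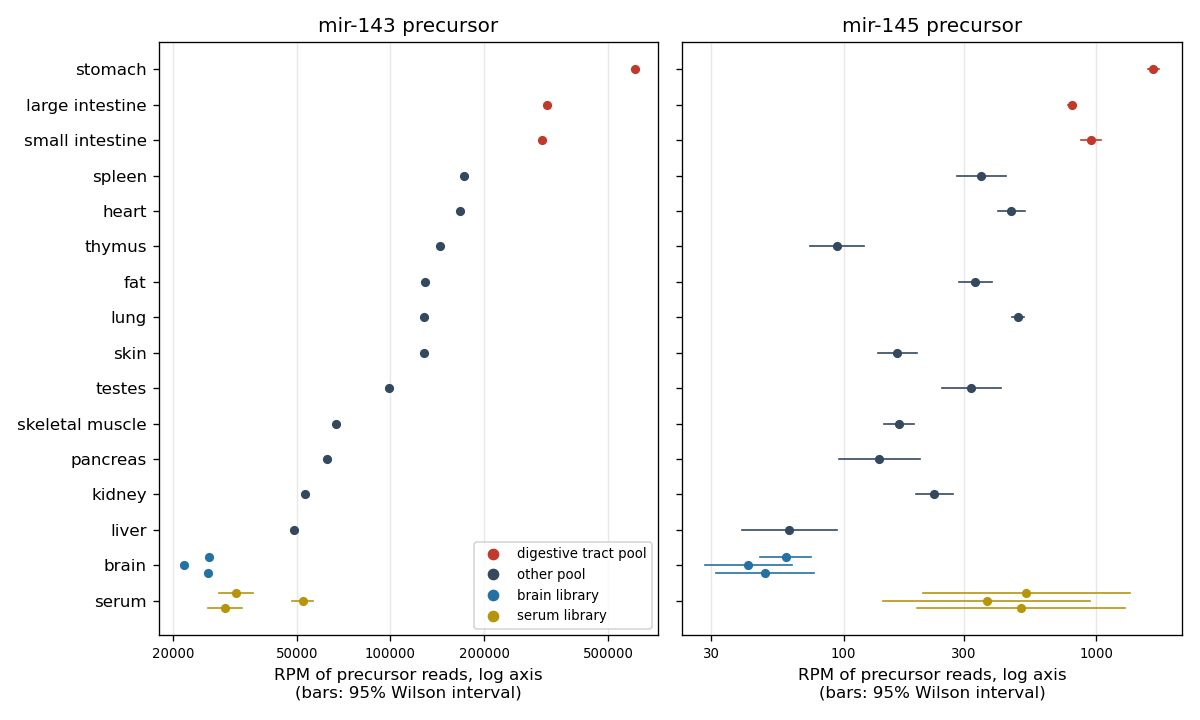
RPM of the mir-143 and mir-145 precursors (log axes) in each library, with tissues in the order of mir-143; points are libraries and bars are 95% Wilson intervals, which for most mir-143 points are narrower than the point. The 3 digestive tract pools lead both panels, with 307717 to 611902 RPM of mir-143 and 806 to 1686 RPM of mir-145, and brain is the lowest tissue in both.

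The digestive tube has a wall of smooth muscle, so the next comparison asked whether its 3 pools differed from the other 11 pools by more than these differ among themselves. mir-143 spanned 307717 to 611902 RPM in the digestive tract pools and 48896 to 172787 RPM in the others, with a median of 127797 RPM there. mir-145 spanned 806 to 1686 RPM against 61.0 to 490 RPM. Neither range overlapped, and the lowest digestive tract pool was 1.78-fold the highest other pool for mir-143 and 1.64-fold for mir-145. In edgeR's quasi-likelihood test, with pools as the units, mir-143 was 3.18 higher on the log2 scale in the digestive tract (SE 0.35, adjusted p = 4.47e-05), a 9.09-fold difference. mir-145 was 3.42 higher (SE 0.48, adjusted p = 0.000473), a 10.7-fold difference. The pair and this comparison were chosen with earlier results of these data known, so these p-values are not those of an independent test.

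These were the 2 precursors that passed the adjusted threshold of 0.05 out of 236 tested (0.847%), both higher in the digestive tract and none lower. DESeq2 called 17, of which 6 were higher, the pair among them, and 11 lower. The nearest other precursor was mir-147, at 3.67 with an adjusted p of 0.0632 in the same edgeR fit. It was led by large intestine at 125 RPM and small intestine at 79.0 RPM and had 3.78 RPM in stomach, so its pattern within the digestive tract was unlike that of the pair.

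The mature list gave the same picture. miR-143-3p, the main arm of mir-143, was 687251 RPM in stomach, 406255 RPM in large intestine and 378662 RPM in small intestine, against 74885 to 221616 RPM in the other pools. Its log2 difference was 3.03 (SE 0.35, adjusted p = 5.76e-05, edgeR). miR-145-5p, the main arm of mir-145, was 516, 127 and 410 RPM in the same pools, and the others ran from 1.89 to 220 RPM. Its ranges overlapped, since lung with 220 RPM, fat with 173 RPM and spleen with 146 RPM were above large intestine, and its log2 difference was 3.76 (SE 0.78, adjusted p = 0.0229). These 2 arms were also all that passed among 221 mature miRNAs tested (0.905%). miR-143-5p and miR-145-3p had too few reads for the test, which needed at least 10 counts in at least 3 libraries.

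The size of these differences depends on the scale, since RPM is a share of a total. mir-143 alone took up 30.8 to 61.2% of the precursor total in the digestive tract pools. The levels in small intestine also depend on the list. On the RefSeq list its 144170 reads of mir-143 were 15.9% of the total, in place of 30.8%. mir-145 was 492 RPM there, in place of 952 RPM. On the RPM scale the mean of the 3 pools was 3.78-fold that of the other 11 for mir-143 and 4.49-fold for mir-145. With the reads of both precursors left out of the total, the ratios were 6.65 and 7.91. On the precursor list the digestive tract pools stayed above every other pool on each scale used. The lowest was at least 1.78-fold the highest other pool for mir-143 and 1.64-fold for mir-145. This did not hold for RPM on the RefSeq list. There small intestine, at 159073 RPM of Mir143, was below spleen (179844 RPM) and heart (175485 RPM). At 492 RPM of Mir145 it was below lung (504 RPM). With plain library totals in edgeR in place of TMM (trimmed mean of M-values) scaling, neither precursor passed (log2 difference 1.92, adjusted p = 0.0534 for mir-143; 2.17 and 0.0679 for mir-145), while the median of all precursors moved from -0.20 to -1.34. Relative to that median the difference of mir-143 was 3.38 with TMM and 3.26 with totals, and that of mir-145 was 3.62 and 3.51.

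Leaving out single pools, mir-143 passed in all 14 fits. mir-145 passed in 13 and not without stomach (2.55, adjusted p = 0.0717), and miR-145-5p passed in 7 of 14. Without the pool labelled pancreas, the differences were 5.93-fold for mir-143 and 6.92-fold for mir-145, in place of 9.09 and 10.7. On the log2 scale they were 2.57 and 2.79. Over all 14 single omissions mir-143 ran from 2.32 to 3.26 and mir-145 from 2.55 to 3.58. Relative to the median of all precursors, the differences without the pancreas pool were 3.29 and 3.51, in place of 3.38 and 3.62. The adjusted p in edgeR without it was 0.00183 for mir-143, 0.0128 for mir-145, 0.000184 for miR-143-3p and 0.0464 for miR-145-5p. Each tissue entered as 1 pool of the same few rats, so these p-values measure the spread between tissues and not between animals.

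**Figure D2:**
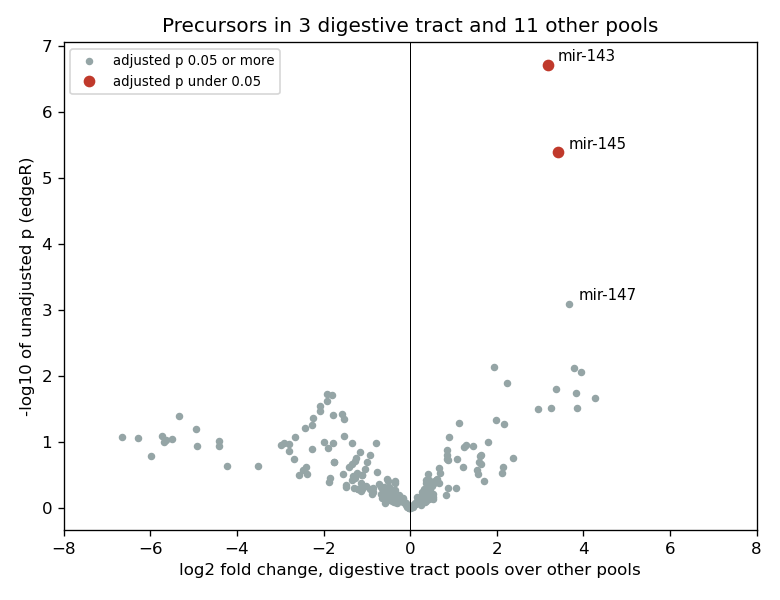
Log2 fold change of each of 236 precursors, 3 digestive tract pools over 11 other pools (x axis), against -log10 of the unadjusted edgeR p (y axis). mir-143 at 3.18 and mir-145 at 3.42 are the 2 points with an adjusted p under 0.05, and mir-147 at 3.67 is the nearest below them.

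Other miRNAs of muscle, stroma and epithelium were taken as lists. Of 24 stromal and vascular miRNAs, such as mir-199a, mir-214, mir-126a and the mir-23b, mir-27b and mir-24 group, all were tested and none passed in either direction in edgeR, with a median log2 difference of 0.38 against -0.20 for all precursors tested. mir-490, which is also known from smooth muscle, was at 1.70 (SE 1.93) and was highest in heart with 590 RPM before stomach with 162 RPM. It passed with DESeq2 (5.23, adjusted p = 0.00243) and, in edgeR, when heart was left out (5.57, adjusted p = 0.00814). Of 8 striated muscle miRNAs, 6 were on the precursor list and 3 had enough reads to be tested, with a median of -2.80 and none passing. Of 5 leukocyte miRNAs none passed, with a median of -1.33.

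Of 12 names of epithelial miRNAs, 11 were on the precursor list and all of these were tested. The name missing there was mir-215. On the RefSeq list Mir215 passed, at 10.8 (adjusted p = 0.00128, edgeR), and the values below leave it out. None of the 11 passed the adjusted threshold in edgeR, and their median log2 difference was 3.36. Of the 11, 8 had an unadjusted p under 0.05 in edgeR, against 24 of all 236 precursors tested. Examples are mir-200b at 3.93 (SE 1.30), mir-200c at 3.78 (SE 1.22) and mir-194-1 at 4.26 (SE 1.66). Their summed level was 27847 RPM in stomach and up to 370213 RPM in small intestine, and 1396 to 238124 RPM in the other pools, where the pool labelled pancreas was highest and liver next with 235460 RPM, with none of the 11 at 0 in either set. Stomach had the lowest sum of the 3 pools, whose median was 244234 RPM. mir-143 took up 61.2% of the total in stomach, 31.7% in large intestine and 30.8% in small intestine. Sums with mir-143 left out of the total were not computed. The part of the epithelial share in the difference of mir-143 and mir-145 was not tested.

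Brain was then set against all 14 pools as the tissue of interest in the study. mir-143 was lower in brain, with a log2 difference of -4.38 (SE 1.24, adjusted p = 0.0104), and so was mir-145, with -4.75 (SE 1.43, adjusted p = 0.0153), both in edgeR. Of 295 precursors tested, 55 (18.6%) were called lower in brain, so the pair was among many. With library totals in edgeR the differences were -2.82 and -3.16, and with DESeq2 they were -5.0 and -5.35, and the number of precursors called lower ran from 24 with the former to 119 with the latter. All 3 hemispheres were below all 14 pools for mir-143, and all 3 were below all 14 for mir-145 too, the nearest being brain with 58.9 RPM and liver with 61.0 RPM. The hemispheres are 1 tissue entered as 3 libraries, so these p-values can be too small. Without any 1 hemisphere neither precursor passed (adjusted p = 0.0622 to 0.0704 for mir-143 and 0.0712 to 0.0767 for mir-145), while the differences stayed between -4.58 and -4.38 and between -5.04 and -4.71.

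The ratio of the precursors within a library does not depend on how libraries are scaled. It may hold any difference in how well the library kit captured each miRNA, so it is compared between libraries and not read as a ratio of molecules. Stomach had 363 reads of mir-143 per read of mir-145 (interval 344 to 383), large intestine 394 (380 to 408) and small intestine 323 (295 to 355). Most other pools were near these values, as heart with 361, fat with 388, skeletal muscle with 404 and spleen with 492. The hemispheres had 443, 515 and 532, with intervals that overlapped one another.

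Further tissues had the highest and lowest ratios. Thymus had 1532 reads of mir-143 per read of mir-145 (1195 to 1964), liver 802 (519 to 1239) and skin 782 (656 to 933). At the other end were kidney with 233 (197 to 275) and lung with 261 (246 to 276). The pools thus spanned a 6.58-fold range, against the 12.5-fold range of mir-143 itself over the same pools. As a share of the pair's reads, mir-145 was 0.279% ± 0.0278 (SD, n = 3) in the digestive tract pools and 0.241% ± 0.111 (SD, n = 11) in the others, and this difference did not pass (exact two-sided permutation test, p = 0.571). The interval of each digestive tract pool overlapped that of heart. These ratios are of precursor reads, and their order was not kept on the main arms. Reads of miR-143-3p and miR-145-5p were 32239 and 6 in kidney and 301744 and 438 in lung. In heart they were 94984 and 24, and in stomach 479367 and 360.

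**Figure D3:**
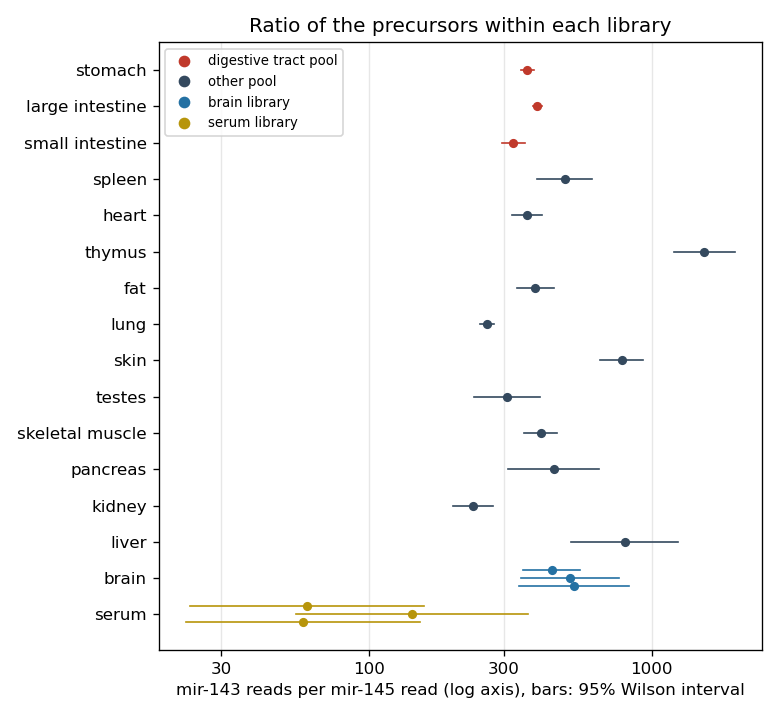
Reads of mir-143 per read of mir-145 in each library (log axis), with 95% Wilson intervals. The 3 digestive tract pools lie between 323 and 394, thymus is highest at 1532, and the 3 serum libraries are lowest at 58.3 to 142 with wide intervals.

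Taking the 3 hemispheres as 1 mean, log2(RPM + 1) of mir-143 and of mir-145 had a Pearson r of 0.88 over the 15 tissues. This is a description, since the tissues came from the same rats and each pair of values shares a library and its total. Each was the precursor most like the other among 294 others. That also held by rank (Spearman's rho 0.83), without the pancreas pool (0.87), with TMM (0.92) or DESeq2 size factors (0.93), and with the reads of the pair left out of the total (0.91). The next most like precursors were far behind. For mir-143 they were mir-147 (0.58), mir-205 (0.47), mir-203a (0.46), mir-214 (0.44) and mir-199a (0.43). For mir-145 they were mir-147 (0.59), mir-214 (0.55), mir-10a (0.54), mir-199a (0.51) and mir-375 (0.50). Of those for mir-143, 2 of 5 were kept with TMM or size factors, whereas 4 or 5 of 5 were kept for mir-145 under every alternative.

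**Figure D4:**
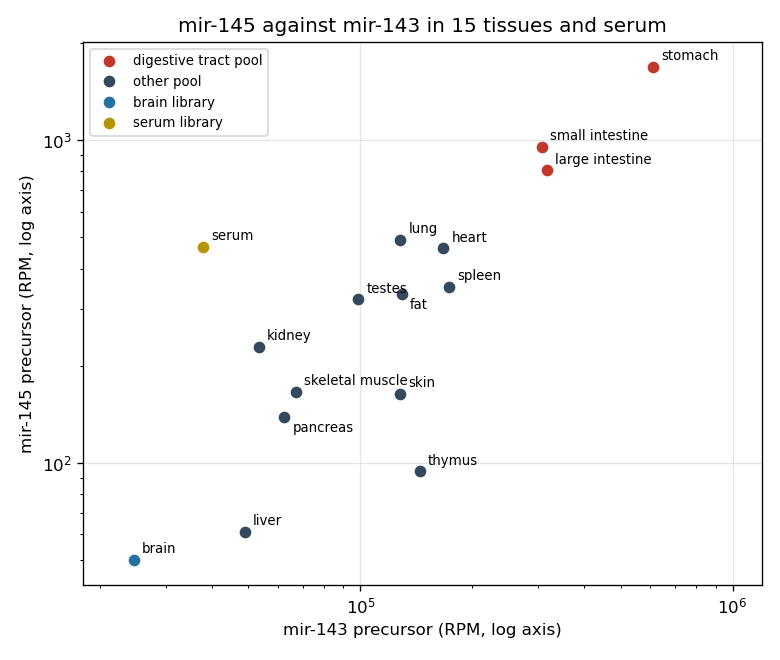
mir-145 against mir-143 (RPM, log axes) in 15 tissues and serum, with the mean of 3 libraries for brain and for serum. The digestive tract pools lie at the upper right and brain at the lower left; thymus, at 94.1 RPM of mir-145, lies below the other tissues of like mir-143, and serum, at 467 RPM, lies above.

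The files count precursors and mature arms separately, which shows how many reads of a hairpin were also counted on a named arm. For mir-143 this share was 97.7 to 100% in every library and 98.6% in all. Nearly all of it was miR-143-3p, with 2670968 reads over the 20 libraries against 9 reads of miR-143-5p. This total includes the large intestine count, given to 3 significant digits, which leaves the share there anywhere between 97.4 and 99.1%. The 5p arm had at most 3 reads in any library and none in brain or serum. With 3 reads taken as the limit that a count of 0 allows, this is up to 9.16 RPM in the shallowest brain library and 614 RPM in the shallowest serum library.

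mir-145 differed. Over all libraries 22.4% of its 7192 precursor reads were counted on an arm, 1553 on miR-145-5p and 55 on miR-145-3p. Among 102 precursors with both arms named and at least 1000 reads, the median share was 78.4% (quartiles 36.6 and 90.9%), and 17 had a lower share than mir-145 and 4 a higher one than mir-143. The reads of mir-145 outside its arms cannot be placed along the hairpin from these counts.

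The share also varied between tissues for mir-145. It was 38.2% in lung (interval 35.5 to 41.0%), 35.0% in small intestine (30.7 to 39.5%), 35.0% in fat (28.1 to 42.6%) and 27.4% in stomach (25.1 to 29.9%). In large intestine it was 12.9% (11.7 to 14.1%), in heart 9.40% (6.45 to 13.5%) and in kidney 5.0% (2.44 to 9.96%). These low values did not overlap the high ones, and they gave miR-145-5p an order over tissues that differed from that of its precursor. Large intestine was the 3rd highest for the precursor and 6th for miR-145-5p, and kidney was 9th and 14th.

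Brain had shares of 35.2, 62.5 and 36.8% from 71, 24 and 19 reads, and its miR-145-5p level of 25.6 ± 4.85 RPM (SD, n = 3) was above those of liver, the pool labelled pancreas, kidney and thymus, though the intervals of its hemispheres overlapped those of liver, the pool labelled pancreas and kidney. Thymus had 1 read of miR-145-5p (1.89 RPM, interval 0.33 to 10.7, which overlapped that of hemisphere 3 alone) and 6 of miR-145-3p. It was the 1 library with more reads of the 3p arm, an observation made after its values were seen. The highest number of miR-145-3p reads was 22, in large intestine, beside 360 of miR-145-5p.

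**Figure D5:**
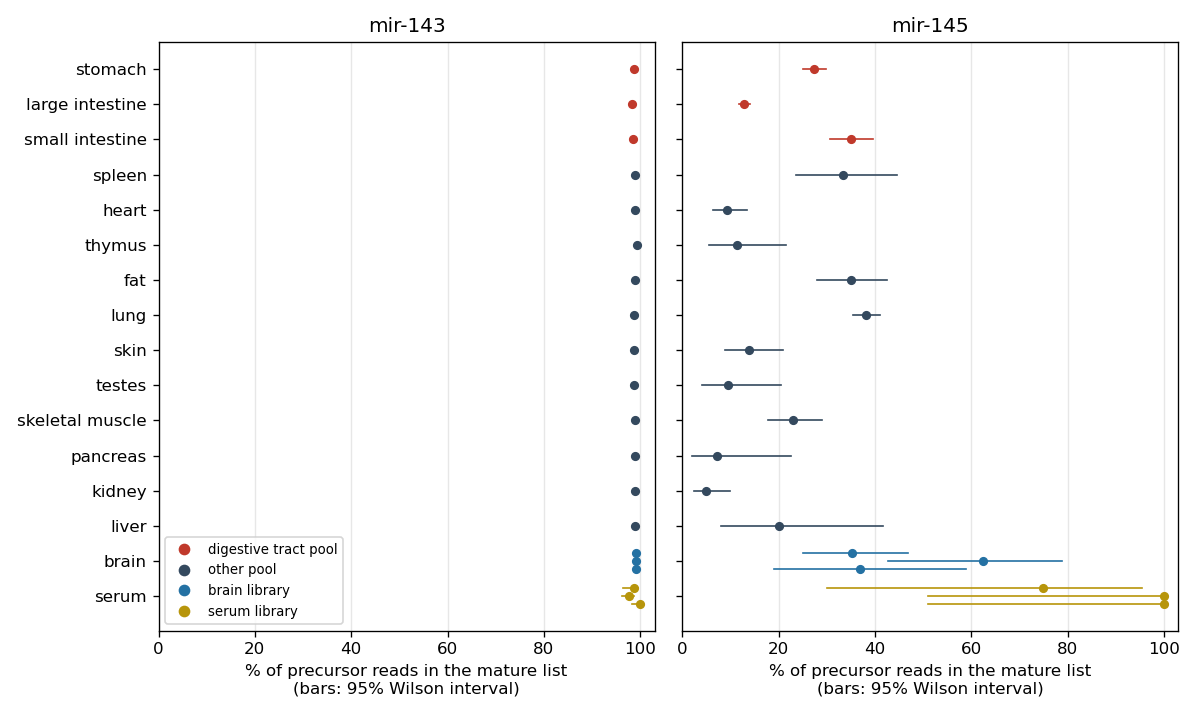
Share of the precursor reads of mir-143 (left) and mir-145 (right) that were also counted on a mature arm, in each library, with 95% Wilson intervals. mir-143 lies at 97.7 to 100% throughout, whereas mir-145 runs from 5.0% in kidney to 38.2% in lung among the pools, and from few reads from 35.2 to 62.5% in brain and 75 to 100% in serum.

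Serum was measured beside the tissues, and brain and serum are the 2 groups with replicates. Their RNA was purified with different kits, so the kit and the group cannot be told apart. mir-143 stood at 31895, 52200 and 29382 RPM in serum, a mean of 37826 ± 12512 RPM (SD, n = 3), and all 3 serum libraries were above all 3 of brain. The mean was 1.54-fold that of brain and below all 14 pools. In edgeR mir-143 was 0.79 lower on the log2 scale in brain than in serum (-0.79, SE 0.33, adjusted p = 0.0545), which did not pass. The result is close to the threshold, and it passed with DESeq2 (-1.03, adjusted p = 0.00771) and without serum replicate 3 (-1.09, edgeR adjusted p = 0.000261) or replicate 1 (-0.90, edgeR adjusted p = 0.0168), but not without serum replicate 2 (-0.33, edgeR adjusted p = 0.229). It turned to between 0.10 and 0.20 when any 1 hemisphere was left out, where 68 precursors in place of 235 had enough reads for the test.

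mir-145 rested on 4 reads in each serum library, which is 529, 368 and 504 RPM, a mean of 467 ± 86.7 RPM (SD, n = 3) and 9.35-fold the brain mean. The counting intervals ran from 143.2 to 1360.5 RPM. They did not overlap those of brain, which ended at 76.4 RPM, but they spanned most of the range of the tissues. mir-145 was lower in brain by edgeR (-3.31, SE 0.55, adjusted p = 0.000203), a 9.91-fold difference. In this comparison 44 of 235 precursors (18.7%) were called lower in brain, and the median log2 difference of all tested was 2.15. This share depends on the count minimum, which mir-145 met through its brain reads only. Without any 1 hemisphere, 25 to 28 of 68 precursors were called lower, and mir-145 missed the minimum. With the pairing by replicate number as a block, the values were -0.69 (edgeR adjusted p = 0.0968) for mir-143 and -3.32 (edgeR adjusted p = 0.00056) for mir-145.

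Of the mature arms, miR-143-3p was 56843 ± 19314 RPM in serum and 28777 ± 3094 RPM in brain (SD, n = 3 each), with no overlap, and its log2 difference did not pass (-0.57, SE 0.40, adjusted p = 0.197, edgeR). The background on the mature list was 30 of 212 called lower in brain (14.2%), and 17 to 21 of 50 without any 1 hemisphere. The call passed with DESeq2 (-0.81, adjusted p = 0.0125) and with library totals (-0.99, adjusted p = 0.00086, edgeR). The direction was not kept throughout, with 0.30 without a count filter, 0.05 to 0.28 without any 1 hemisphere and -0.03 without serum replicate 2. miR-145-5p had 3, 4 and 4 reads in serum, or 640 ± 86.8 RPM (SD, n = 3), against 25, 15 and 7 reads in brain. It missed the count minimum and was not tested in the main fit. Of the 12 precursor reads of mir-145 in serum, 11 were on miR-145-5p.

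The precursors differed in their place in serum. Serum lay 1.76 below the tissue median for mir-143 on the log2 scale (-1.76, SD 0.45). For mir-145 it lay 0.54 above the median (SD 0.28), and 4 tissues had more. With 4 reads of mir-145 in each serum library, this SD came from the library totals and holds no counting error. The counting interval of each library included the tissue median of 321 RPM, so the side on which serum lay is not settled for mir-145. The direction for mir-145 also depends on the scaling, with -0.39 by TMM and -0.48 by size factors. mir-143 stayed below at -2.51 and -2.68. The ratio within serum was 60.3, 142 and 58.3 reads of mir-143 per read of mir-145, lower than in each of the 17 tissue libraries. As a share of the pair, mir-143 was 99.8% in brain and 98.7% in serum, a difference of 1.14 percentage points with no overlap (exact two-sided permutation test, p = 0.1, which is the smallest that 3 against 3 allows). The upper end of the interval of the serum library with 142 was 366, which overlaps several tissues.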

How the data were processed

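Per the study's methods, small RNA libraries (TruSeq kit) were run on a MiSeq, bases below a quality of 20 were trimmed, and Bowtie placed the reads on Rn5 before they were counted on miRBase and RefSeq names. The deposited values are estimated counts (expected counts) per name, without normalization, made by the authors, in 3 lists stacked per library (388 RefSeq, 444 precursor and 577 mature names, miRBase release 21). The same reads were counted in each list, so RPM was taken within a list. RefSeq rows were used only as an alternative.

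Counts were rounded to whole numbers for edgeR (version 4.0.16, R 4.3.3), with TMM, a minimum of 10 counts in 3 libraries compared, Benjamini-Hochberg adjustment over the whole list and a threshold of 0.05. SEs are the log2 fold change over the root of F. DESeq2 (version 1.42.0) used size factors from positive counts. The edgeR step was also run on simulated counts, with as many rises as falls and with TMM only. That run cannot show which scaling is right for these data. Wilson intervals, exact permutation tests and levels used Python 3.11.15 with SciPy 1.17.1. Groups came from the sample labels, and replicates of brain and of serum differed by more than sampling noise. The same numbers mark brain and serum, which the study took from the same 3 rats. Deviations of same-numbered libraries from their group means correlated at 0.10, -0.11 and -0.08 over 75 precursors.

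The pair, the lists and the tests were chosen with earlier results of these data known. Named were the pair and its arms, the 5 precursors most like each, and from each list up to 3 precursors past the threshold (none passed in edgeR's main fit). Further members were named as examples, or for what they are known for, after their values were seen. Alternatives were DESeq2, other scalings, no count filter, the RefSeq list, brain added to the other pools, other pseudocounts, libraries left out and the replicate block. Leaving the pair out of the total in the correlations was added after seeing the data. Mature sequences, positions and neighbours came from RefSeq tables of GRCr8, in which both hairpins and all 4 arms were found.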

Additional observations from a re-analysis of the deposited data

How the results depend on the processing

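Serum depth was a limit for mir-145, with 4 reads a library, and pools had no replicates. Of 300 recomputed values, 231 were counted as the same, 31 moved further, 10 came to pass, 19 no longer passed and 9 reversed. Tested differences were the same if they kept their direction and side of the threshold, and levels if they moved by less than the SD. Numbers of calls were judged by a set ratio and the correlation of the pair by its interval. The most like precursors were judged by their overlap, and the share of the pair by direction alone. The number of features passing the count filter is given below for the fits without a hemisphere, and no cause was tested.

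For the digestive tract pools the count of 2 precursors became 17 with DESeq2, 0 with library totals in edgeR (62 at an unadjusted p under 0.05) and 4 with the RefSeq list, and the count of 2 mature miRNAs became 10 with DESeq2 and 1 with brain added. With library totals mir-143 was 1.92 and mir-145 2.17. miR-145-5p no longer passed with library totals (2.29), without a count filter (3.60) or with brain added (3.30). Leaving out 1 pool gave 1 to 3 calls in either list, 2.32 to 3.26 for mir-143, 2.55 to 3.58 for mir-145, 2.59 to 3.22 for miR-143-3p and 3.23 to 4.20 for miR-145-5p, which no longer passed without heart, large intestine, liver, skeletal muscle, skin, small intestine or stomach.

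For brain against serum mir-143 passed with DESeq2 (-1.03), its size factors in edgeR (-1.03), library totals (-0.62) and the RefSeq list (-0.83). miR-143-3p passed with the first 3 of these (-0.81, -0.81 and -0.99) and reversed without a count filter (0.30). Leaving out 1 library gave 55 to 141 precursor calls and 36 to 128 mature calls, -1.09 to 0.20 for mir-143, -3.40 to -3.13 for mir-145 (3 serum omissions, since it missed the count minimum without any 1 hemisphere) and -0.81 to 0.28 for miR-143-3p. The lowest counts of calls came without a hemisphere, where only 68 precursors and 50 mature miRNAs passed the filter. The replicate block gave 141 precursor calls in place of 149 and 125 mature calls in place of 142, with miR-143-3p at -0.49, and changed no call of the pair. Without a count filter miR-145-5p was -3.28 (edgeR adjusted p = 2.1e-06). For brain against the pools, leaving out 1 library gave 38 to 148 calls, -4.58 to -3.85 for mir-143 and -5.04 to -4.19 for mir-145.

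The log2 level over the tissue median in brain was -2.70 (TMM), -3.74 (size factors) and -2.54 (total without the pair) for mir-143, and -3.05 and -3.89 (TMM, size factors) for mir-145. In serum it was -2.51 and -2.68 (TMM, size factors) for mir-143, and reversed to -0.39 and -0.48 for mir-145. The difference in the share of the pair stayed between 0.96 and 1.46 percentage points without any 1 library, where the smallest exact permutation p is 0.2.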

Other observations

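Further precursors passed in the comparison of digestive tract and other pools under some alternatives, and they are named here after their values were seen. The RefSeq list called 4 names, the pair together with Mir147 (3.68) and Mir215 (10.8), a miRNA of the intestinal epithelium that the precursor list used here did not hold. DESeq2 called 6 precursors higher, among them the pair and mir-490 (5.23), mir-147 (3.40), mir-203a (3.36) and mir-132 (1.95). It called 11 lower, of which mir-322-1 was at -2.34 and mir-542-2 at -2.23. In edgeR mir-490 passed beside the pair when heart was left out (5.57), mir-203a when skin was left out (3.97) and mir-147 when testes was left out (4.03).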
